A study of Mus musculus with 4 samples.

Results

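Batf, Batf2 and Batf3 encode basic leucine zipper transcription factors of the AP-1 superfamily, and Irf4, Irf5 and Irf8 encode interferon regulatory factors with roles in particular immune lineages. These 6 genes were taken by symbol from the 30905 genes of a single-cell count matrix, and UMIs of all 6 were present. The cells came from transplanted mouse hearts that were collected 5 days after heterotopic grafting into the abdomen of C57BL/6J recipients, with young adult male mice as donors and recipients. There were 2 allogeneic grafts from Balb/C donors and 2 syngeneic grafts from C57BL/6J donors, and neither the labels nor the methods name a transgene or drug in any group. Droplet 3' RNA libraries were read from the dissociated grafts, and the matrix marks their origin only by 4 barcode suffixes. No source used here says which suffix is which graft. The suffixes are therefore called libraries 1 to 4, allogeneic and syngeneic grafts were not compared, and donor and recipient cells were not told apart. The matrix counts as 1 pooled sample without replicates, so no difference was tested. All intervals are exact 95% intervals, and they cover counting error only.

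BATF proteins have a DNA-binding and dimerisation domain but no activation domain of their own. They pair with JUN proteins on AP-1 sites, and together with IRF4 or IRF8 they occupy composite elements in which an AP-1 site lies beside an interferon regulatory factor site. Batf is known for its part in effector and regulatory T cells, Batf2 as a gene induced by interferon in macrophages, and Batf3 for the development of cross-presenting conventional dendritic cells. Irf4 is needed in activated T cells, in plasma cells and in the other conventional dendritic subset, Irf5 drives inflammatory cytokine genes in macrophages, and Irf8 directs monocyte, dendritic and B cell development.

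All 6 genes lie on the plus strand of mm10 (GRCm38): Batf at chr12:85686669-85709087, Batf2 at chr19:6140983-6172476, Batf3 at chr1:191097847-191108945, Irf4 at chr13:30749226-30766976, Irf5 at chr6:29526625-29541871 and Irf8 at chr8:120736358-120756694. RefSeq promoter entries (GRCm38.p6) matched 5 of the 6 genes, with 1 start each for Batf, Batf3, Irf4 and Irf5 and 2 starts for Irf8. Batf2 had no entry. The 250 bases before each start were searched on both strands for the gamma-activated sequence TTCNNNGAA, for the interferon-stimulated response element (GAAA, any 2 bases, GAAA) and for the AP-1 site TGANTCA. Irf8 is shown because its first start was the only window of a member with 2 gamma-activated sequences, and Irf5 as a window with none of the 3 motifs. The windows of Batf, Irf4 and the second Irf8 start also held none. Those of Batf, Batf3 and Irf4 overlap an annotated exon and are not shown. Both windows shown lie directly upstream of the first exon and are written 5′ to 3′ on the plus strand, with the gamma-activated sequences in capitals.
Irf8, chr8:120736108-120736357: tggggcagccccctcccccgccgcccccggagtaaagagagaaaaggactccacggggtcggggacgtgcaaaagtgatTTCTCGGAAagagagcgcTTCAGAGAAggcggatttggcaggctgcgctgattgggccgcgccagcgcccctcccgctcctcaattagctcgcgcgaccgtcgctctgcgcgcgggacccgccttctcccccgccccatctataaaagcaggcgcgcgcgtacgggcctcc
Irf5, chr6:29526375-29526624: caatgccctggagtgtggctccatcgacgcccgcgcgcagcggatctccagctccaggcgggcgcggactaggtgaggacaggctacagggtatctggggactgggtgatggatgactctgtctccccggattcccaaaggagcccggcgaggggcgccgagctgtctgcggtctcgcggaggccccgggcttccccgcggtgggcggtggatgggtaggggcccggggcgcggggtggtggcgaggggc
The Irf8 matches start 171 and 153 bases before the gene's start, and the Batf3 window held 1 match, TTCCACGAA, starting 239 bases before its start at chr1:191098175-191098183. This Batf3 start lies inside the gene as annotated, so the match does not lie upstream of the gene. A gamma-activated sequence was present in 7.02% of 32851 mouse promoter windows of this length, a response element in 2.98% and an AP-1 site in 6.75%. A match describes letters only, since no binding was measured.

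Of 53824 barcodes, 44626 passed a filter of more than 200 genes and less than 20% mitochondrial UMIs, and 42395 remained once likely doublets were left out. The libraries held 9358 to 12496 of these cells. Over all deposited barcodes, the median UMIs ran from 4759 in library 2 to 9784 in library 4. A barcode sequence occurred in more than 1 library 308 times, and 199 of these were among the filtered cells. Classes were named from markers that hold none of the 6 genes, and the 6 genes took no part in clustering. There were 10949 endothelial-like, 8264 monocyte/macrophage-like, 1142 T-like, 402 NK-like, 270 B-like and 261 dendritic-like cells, and 8717 cells (20.6%) stayed unnamed. The classes were unevenly spread, with 1102 of the T-like and 5817 of the monocyte/macrophage-like cells in library 4 but only 641 of the endothelial-like cells. Further cells of libraries 1 to 3 lay in clusters that had all 8 T markers but stayed unnamed. Different clusters held most monocyte/macrophage-like cells of each library: 3 clusters led by Spon1, by Nos2 and by Ly6c2 in library 4, a cluster led by Fcrls in libraries 1 and 3, and a cluster led by Cxcl3 and Lcn2 in library 2. Irf8 had the most UMIs, 91531, and was seen in 42.3% of cells, and Irf4 the fewest, 2101 in 2.32% of cells. The other 4 genes were seen in 10.0% (Batf3) to 21.4% (Irf5) of cells.

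Pooled over libraries, each of the 6 genes was highest in an immune class among the named classes, but the class differed. Batf was highest in T-like cells, Batf2 in monocyte/macrophage-like cells, Batf3 and Irf5 in dendritic-like cells, Irf4 in B-like cells and Irf8 in NK-like cells. Levels are given as CPM, the UMIs of a gene per 1000000 non-mitochondrial UMIs summed over the cells of a class, and are compared within 1 gene only.

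**Figure D1:**
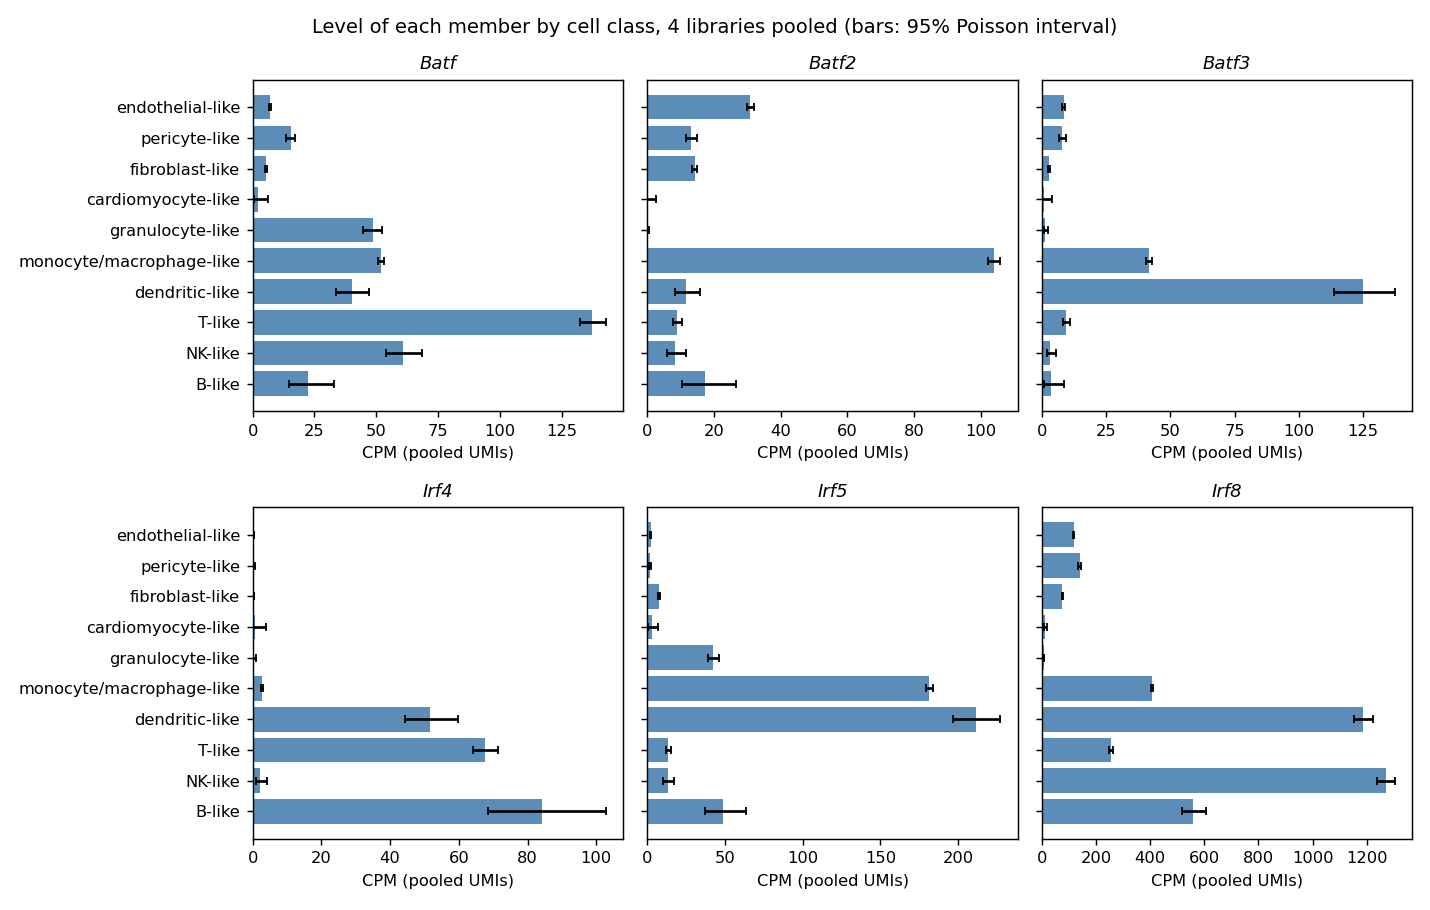
Pooled level of each gene (CPM, linear axis from 0 in each panel) in 10 cell classes named from markers, with bars for all 4 libraries together and lines for the exact Poisson 95% interval. Batf peaks in T-like cells at 137 CPM, Batf3 and Irf5 in dendritic-like cells at 125 and 211 CPM, Irf4 in B-like cells at 84.3 CPM, and Irf8 in NK-like cells at 1270.3 CPM next to dendritic-like cells at 1187 CPM.

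Batf stood at 137 CPM in T-like cells (132 to 143), at 60.9 CPM in NK-like cells (53.9 to 68.5) and at 51.8 CPM in monocyte/macrophage-like cells. Granulocyte-like cells followed at 48.5 CPM, dendritic-like cells at 39.996 CPM and B-like cells at 22.4 CPM. T-like cells thus stood clear of NK-like cells, while the intervals of monocyte/macrophage-like and granulocyte-like cells overlapped. Endothelial-like cells had 6.95 CPM. A Batf UMI was present in 64.6% of T-like cells, and in 23.9% once each cell was thinned to 2000 UMIs. In cardiomyocyte-like cells, which should lack the gene, the share was 0.787%, and 0.727% thinned, at a median of 2709 UMIs against 11490.5 in T-like cells. These cells were mostly of library 1 (331 of 381), and in erythroid-like cells, 57 of 58 of library 4, it was 5.17%, and 2.78% thinned (0.0703 to 14.5; 36 cells).

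By library, cells named T-like could be read in libraries 3 and 4 only, at 52.0 CPM (25.9 to 93.0; 22 cells) and 138 CPM. A cluster of 149 cells (92 of library 1 and 56 of library 3) had 8 of 8 T markers but stayed unnamed, with haemoglobin genes leading it. Another of 149 cells (147 of library 2), with S100a8 and S100a9 among its leading genes, also had all 8 and stayed unnamed. Cells of these clusters are in no T-like value given here. Monocyte/macrophage-like cells had 44.4, 40.6, 43.5 and 55.5 CPM of Batf in libraries 1 to 4. Monocyte/macrophage-like cells were thus close to each other in all 4 libraries. Of libraries 3 and 4, only library 4 had T-like cells above them beyond counting error. Libraries 1 and 2 had 16 and 2 T-like cells, too few to be read alone. The 40 T-like cells outside library 4 had 99.5 CPM of Batf together, from 40 UMIs. The log2 ratio of T-like over monocyte/macrophage-like cells was 1.41 pooled (1.34 to 1.47), 0.26 in library 3 (-0.75 to 1.10) and 1.32 in library 4. Of the 22 T-like cells in library 3, 11 fell in the gamma-delta T-like cluster. In the T-like over monocyte/macrophage-like comparison, 2 of the 6 genes were at least 2-fold higher (Batf and Irf4), beside 22.8% of all genes at 10 CPM or more in either class. In the other direction 3 were at least 2-fold lower (Batf2, Batf3 and Irf5), beside 20.3% of genes. Irf8 was 0.67 lower on the log2 scale.

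Among T-like clusters, Batf was highest in the regulatory T-like cluster led by Tnfrsf4, Il10 and Foxp3, at 192 CPM (179 to 206; 295 cells). It stood at 123 and 124 CPM in the CD8 T-like clusters led by Ifng and by Ly6c2, and at 94.8 CPM (62.5 to 138; 52 cells) in the gamma-delta T-like cluster led by Cd163l1 and Trdc. The CD8 T-like cells led by Ifng, which also carry Gzmb, were 0.65 below the regulatory T-like cells on the log2 scale (-0.77 to -0.52). Both of these clusters came almost wholly from library 4, with 453 of 458 and 285 of 295 cells. NK-like cells had 47.5 CPM of Batf in library 1, 26.9 CPM in library 3 and 66.3 CPM in library 4.

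Irf4 was found in B-like, T-like and dendritic-like cells and was near 0 elsewhere. B-like cells had 84.3 CPM (68.4 to 102.7), T-like cells 67.7 CPM (64.1 to 71.5) and dendritic-like cells 51.6 CPM (44.4 to 59.7). By library, B-like cells had 48.2 CPM in library 1 (8 UMIs in 36 cells), 65.2 CPM in library 3 and 93.2 CPM in library 4. Dendritic-like cells had 70.8 CPM in library 1, and with so few B-like UMIs these classes cannot be ordered there. The pooled B-like and T-like intervals overlapped, and the log2 ratio between them was 0.32 (0.01 to 0.61). Monocyte/macrophage-like cells had 2.67 CPM, NK-like cells 2.21 CPM and endothelial-like cells 0.372 CPM. The share of cells with an Irf4 UMI was 39.8% in T-like cells and 21.1% in B-like cells, and 12.8% and 11.8% at 2000 UMIs per cell. Among cardiomyocyte-like cells 1 UMI was seen, and B-like cells had a median of 3836 UMIs.

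Irf4 was also far lower in NK-like than in T-like cells, with a log2 ratio of -4.94 (-6.003 to -4.06) beside -1.17 for Batf. The NK-like cluster led by Ncr1, with 105 cells mostly of libraries 1 and 3, had 0 UMIs of Irf4, and the NK-like cluster led by Gzma, of library 4, had 2.80 CPM. Within T-like cells Irf4 ran from 52.0 CPM in the regulatory T-like cluster to 75.6 CPM in the CD8 T-like cells led by Ifng and 101.8 CPM (68.2 to 146) in gamma-delta T-like cells. The order of Irf4 across T-like clusters was thus not that of Batf. In library 3 the T-like cells had 14.2 CPM, from 3 UMIs, against 68.6 CPM in library 4.

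Irf8 was far higher in NK-like and B-like than in T-like cells. NK-like cells had 1270.3 CPM (1238 to 1304), B-like cells 560.1 CPM (518 to 605) and T-like cells 254 CPM (247 to 261). An Irf8 UMI was present in 94.8%, 76.7% and 62.3% of these cells, and in 83.1%, 57.0% and 29.2% at 2000 UMIs. Cardiomyocyte-like cells had 12.4 CPM and a UMI in 3.41% of cells. Erythroid-like cells had 88.2 CPM and a UMI in 24.1% of cells, and 11.1% of them held a UMI at 2000 UMIs (3.11 to 26.1). All 3 lymphoid shares at 2000 UMIs stood above both. Outside the lymphoid and dendritic classes Irf8 was 405.5 CPM in monocyte/macrophage-like, 140.2 CPM in pericyte-like, 117 CPM in endothelial-like and 24.5 CPM in smooth muscle-like cells.

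The 2 NK-like clusters were close in Irf8, at 1279 CPM in the cluster led by Gzma and 1239 CPM in the one led by Ncr1, with a log2 ratio of 0.05 (-0.05 to 0.14). By library, NK-like cells had 1296 CPM in library 1, 1029 CPM in library 3 and 1284 CPM in library 4. B-like cells varied more, with 446, 278 and 788 CPM in the same 3 libraries. The B-like cluster of library 4 had 764 CPM against 334 CPM in the B-like cluster of libraries 1 and 3, a log2 ratio of 1.20 (0.95 to 1.45). In that library 4 cluster 6 of 12 monocyte/macrophage markers passed the marker rule, against 0 of 12 in the other B-like cluster. RNA of the markers C1qa, C1qb and C1qc was 0.0897% of UMIs against 0.0254%, and the part of monocyte/macrophage RNA in the Irf8 level was not tested.

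B-like over T-like cells gave a log2 ratio for Irf8 of 1.14 pooled (1.02 to 1.26), 2.30 in library 3 and 1.61 in library 4. The pooled value was thus below both values within a library, and it was 2.64 without library 4. In this comparison 2 of the 5 genes measured at 10 CPM or more were at least 2-fold higher (Irf5 and Irf8), beside 17.3% of genes, and 1 was lower (Batf), beside 20% of genes. NK-like over T-like cells gave 2.32 for Irf8 (2.27 to 2.38), and 1 of 4 measured genes was at least 2-fold higher beside 6.67% of genes. Batf at -1.17 and Irf4 were the 2 lower ones, beside 6.95% of genes. Within T-like cells Irf8 was 321 CPM in the CD8 T-like cluster led by Ifng, 182.5 CPM in the CD8 T-like cluster led by Ly6c2, 117 CPM in regulatory T-like and 59.7 CPM in gamma-delta T-like cells.

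**Figure D2:**
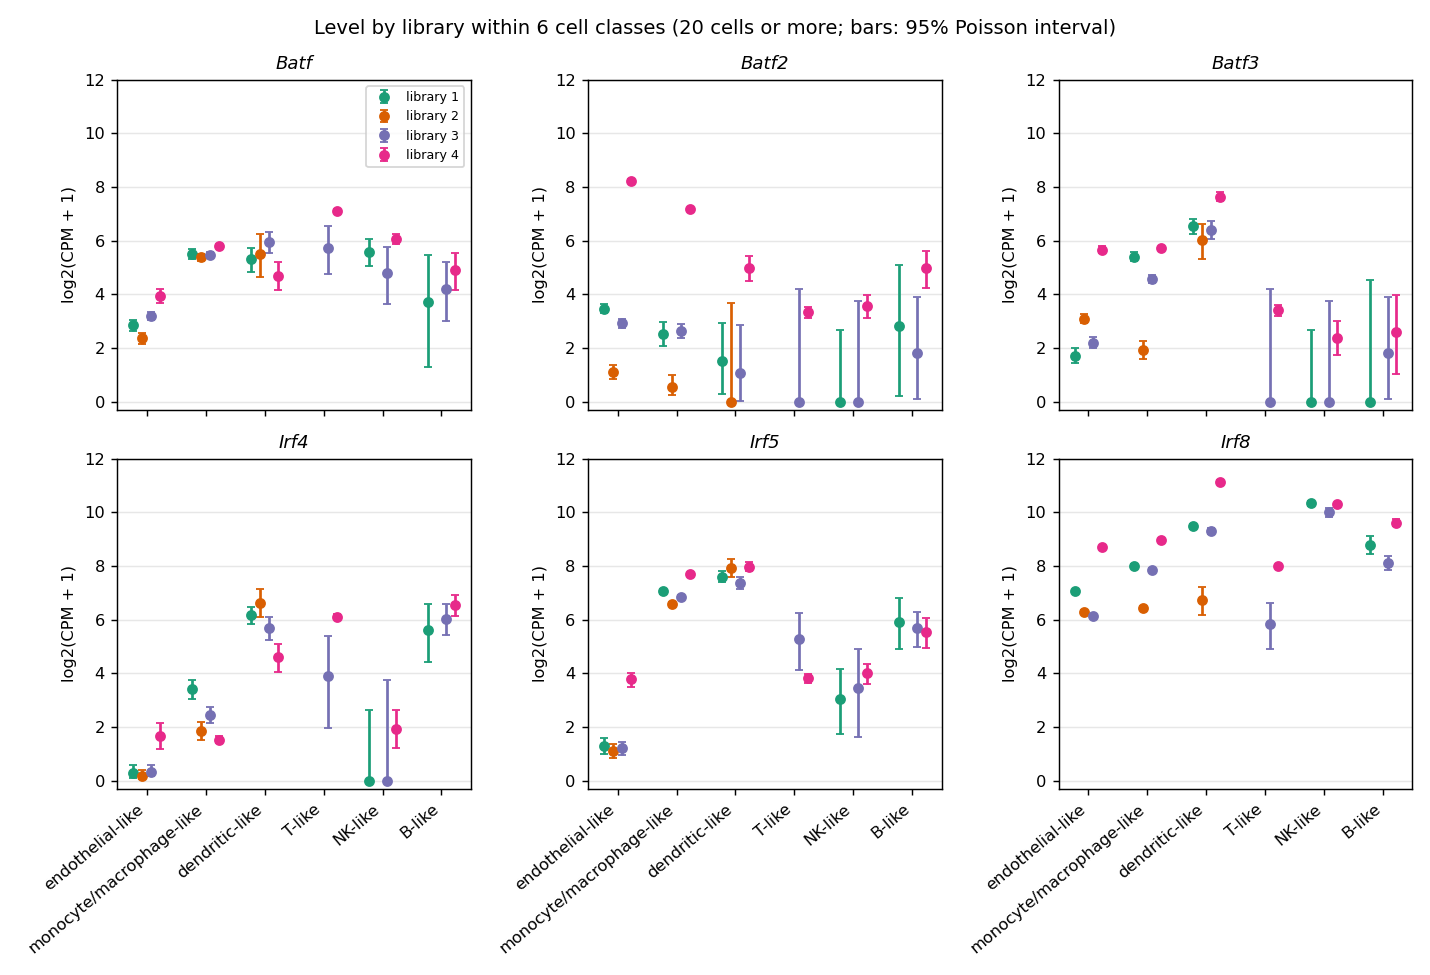
Level of each gene, as log2(CPM + 1), in libraries 1 to 4 for 6 cell classes with at least 20 cells in that library. Each point is 1 class in 1 library, and lines show the exact Poisson interval. Batf2 is near the bottom in libraries 1 to 3 and highest in library 4, with 299 CPM in endothelial-like and 144 CPM in monocyte/macrophage-like cells, while Batf in monocyte/macrophage-like cells stays between 40.6 and 55.5 CPM.

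In dendritic-like cells Batf3 stood at 125 CPM (114 to 137), Irf5 at 211 CPM (196 to 227), Irf8 at 1187 CPM (1151 to 1224) and Batf at 39.996 CPM. Against monocyte/macrophage-like cells, the log2 ratio was 1.58 for Batf3 (1.44 to 1.72), 4.27 for Irf4 (4.003 to 4.54) and 1.55 for Irf8 (1.504 to 1.595). Irf5 was close in both classes, with 181 CPM in monocyte/macrophage-like cells and a ratio of 0.22 (0.11 to 0.33). Of the 6 genes, 3 were at least 2-fold higher in dendritic-like cells, beside 10.6% of all genes measured, and 1 (Batf2) was lower, beside 11.8%.

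By library, Batf3 in dendritic-like cells was 91.97, 63.7, 83.5 and 199.5 CPM in libraries 1 to 4, and in monocyte/macrophage-like cells 41.5, 2.78, 22.6 and 51.5 CPM. Dendritic-like cells were thus above monocyte/macrophage-like cells in each library, with log2 ratios of 1.15, 4.52, 1.89 and 1.95, and a pooled ratio of 2.27 without library 4. For Irf4 dendritic-like cells had 70.8, 98.7, 50.8 and 23.4 CPM, and monocyte/macrophage-like cells had 9.68, 2.64, 4.49 and 1.90 CPM. The groups did not overlap, and the lowest dendritic-like value was in library 4. Irf8 in dendritic-like cells was 712, 105, 639 and 2272 CPM. The order of dendritic-like and NK-like cells therefore turned with the library, since NK-like cells were higher in libraries 1 and 3 and dendritic-like cells in library 4. Library 2, with 24 dendritic-like cells, was lowest and library 4 highest, and in library 2 the log2 ratio to monocyte/macrophage-like cells was 0.30 (-0.25 to 0.80).

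A Batf3 UMI was seen in 51.3% of dendritic-like and 34.7% of monocyte/macrophage-like cells, and in 17.5% and 6.87% at 2000 UMIs per cell. Cardiomyocyte-like cells gave 1 UMI in all, a share of 0.364% at 2000 UMIs. Median depths were 13348 UMIs in dendritic-like and 14433 UMIs in monocyte/macrophage-like cells. T-like cells had 9.41 CPM of Batf3 and NK-like cells 3.31 CPM.

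The dendritic-like cells fell into 4 clusters that the genes divided sharply. A conventional dendritic type 1-like cluster led by Xcr1, Itgae and Wdfy4 (55 cells) had 1813 CPM of Irf8, 177 CPM of Batf3 and 1.86 CPM of Irf4, from 2 UMIs. Xcr1 encodes the chemokine receptor that marks cross-presenting dendritic cells. A type 2-like cluster led by Cd209a, Ccl17 and Mgl2 (107 cells) had 51.3 CPM of Irf8, 31.8 CPM of Batf3 and 100.4 CPM of Irf4. Between the type 1-like and the type 2-like cells, Irf8 thus differed by 5.14 on the log2 scale (4.802 to 5.51), Batf3 by 2.47 and Irf4 by -5.76 (-8.82 to -3.88).

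A mature dendritic-like cluster led by Fscn1 and Ccr7 (77 cells) stood near the type 1-like cells in Irf8, at 1699 CPM, with a log2 ratio of type 1-like over mature cells of 0.09 (-0.01 to 0.19). It had the highest Batf3 of the 4 clusters, at 253 CPM, and 38.0 CPM of Irf4, while Batf was 8.58 CPM from 7 UMIs. Haemoglobin genes were among its leading genes, and RNA of Hba-a1, Hba-a2, Hbb-bs and Hbb-bt made up 0.348% of its UMIs. A plasmacytoid-like cluster led by Ly6d and Siglech (22 cells) had the highest Irf8, at 3107 CPM (2893 to 3334), with 39.9 CPM of Irf4 from 10 UMIs and 1 UMI of Batf3. Batf was highest in the type 2-like cells, at 67.9 CPM, against 29.8 CPM in type 1-like cells. Irf5 was present in all 4, at 315, 158, 207 and 71.9 CPM in type 1-like, type 2-like, mature and plasmacytoid-like cells.

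Library and cluster were tied, since the type 2-like cluster had 45, 20 and 42 cells in libraries 1 to 3 and 0 in library 4, and 61 of the 77 mature cells were in library 4. Within libraries 1 to 3 the type 2-like cells had 104, 114 and 88.4 CPM of Irf4 and 67.6, 18.3 and 48.4 CPM of Irf8, so their Irf4 was above the pooled level of every other dendritic-like cluster in each. Within library 4, Irf8 was 2035 CPM in the 23 type 1-like cells and 2047 CPM in the 61 mature cells. A further cluster of 158 cells, all of library 4, carried 9 of 12 monocyte/macrophage markers and 8 of 12 dendritic markers and was counted as monocyte/macrophage-like. It had 492 CPM of Irf8, 156 CPM of Batf2 and 11.1 CPM of Irf4.

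**Figure D3:**
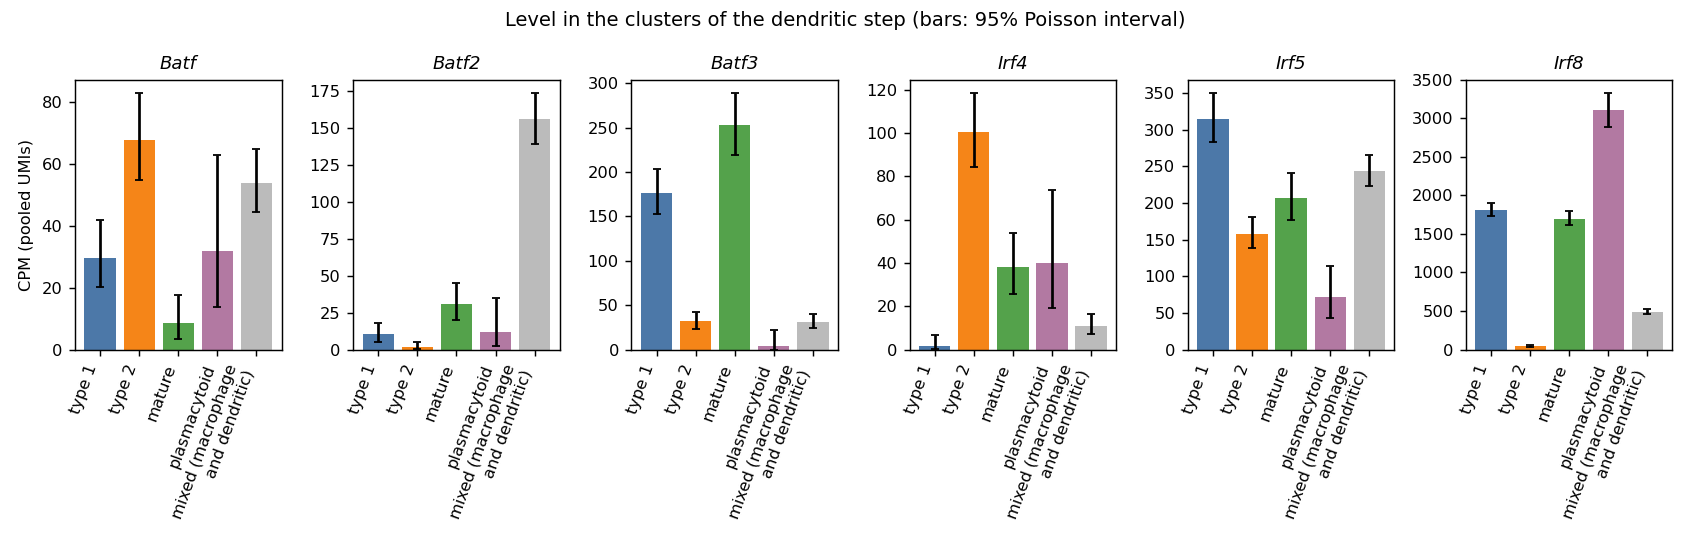
Level of each gene (CPM, linear axis from 0) in the type 1-like, type 2-like, mature and plasmacytoid-like dendritic clusters and in the mixed cluster of library 4, with lines for the exact Poisson 95% interval. Irf8 is 51.3 CPM in the type 2-like cells and 1699 to 3107 CPM in the other dendritic-like clusters, and Irf4 is 100.4 CPM in the type 2-like and 1.86 CPM in the type 1-like cells.

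Irf5 was carried by dendritic-like and monocyte/macrophage-like cells, at 211 and 181 CPM, and was lower in B-like cells at 49.0 CPM (37.1 to 63.5) and granulocyte-like cells at 42.3 CPM. T-like and NK-like cells both had 13.5 CPM. An Irf5 UMI was seen in 80.9% of monocyte/macrophage-like and 74.7% of dendritic-like cells, and in 29.2% and 32.1% at 2000 UMIs. The thinned shares in T-like cells (3.02%) and NK-like cells (3.17%) were not above that of erythroid-like cells (5.56%, 0.680 to 18.7, at a median of 2963 UMIs) and are not read as expression. That share comes from 36 cells, in whose cluster RNA of the monocyte/macrophage markers C1qa, C1qb and C1qc was 0.0705% of UMIs. Unthinned, those shares were 16.4% and 12.9%.

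In monocyte/macrophage-like cells Irf5 was 133, 94.7, 115 and 210.0 CPM in libraries 1 to 4, lowest in library 2 and highest in library 4. In dendritic-like cells it was 194, 242, 165 and 252 CPM, so each dendritic-like value was above the monocyte/macrophage-like value of its library. Endothelial-like cells had 1.46, 1.15, 1.31 and 12.7 CPM. Among monocyte/macrophage-like clusters, Irf5 was highest in the infiltrating monocyte-like cluster led by Ly6c2 and Plac8, at 271 CPM, and stood at 215 CPM in the inflammatory macrophage-like cluster led by Nos2. It was 116 CPM in the cluster led by Fcrls, a gene of tissue macrophages and microglia, and 93.7 CPM in the Cxcl3-led cluster of library 2. RNA of the granulocyte markers S100a8 and S100a9 was 0.546% of UMIs in that Cxcl3-led cluster.

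Irf8 followed a like order in these clusters, with 579 CPM in infiltrating monocyte-like, 503 CPM in inflammatory macrophage-like, 241 CPM in Fcrls-led and 76.9 CPM in Cxcl3-led cells. Irf4 was 6.85 CPM in the Fcrls-led cluster, 1.53 to 1.89 CPM in the 3 large clusters of library 4 and 0.926 CPM in the Cxcl3-led cluster. Batf3 was 63.9 CPM in the Spon1-led cluster, 39.1 CPM in the Nos2-led, 37.8 CPM in the Ly6c2-led, 26.4 CPM in the Fcrls-led and 2.01 CPM in the Cxcl3-led cluster. For the Fcrls-led and Cxcl3-led clusters against those of library 4, cluster and library cannot be told apart. The Spon1-led, Nos2-led and Ly6c2-led clusters lie within library 4, and among them Irf5 (197, 215 and 271 CPM) and Irf8 (448, 503 and 579 CPM) were lowest in the Spon1-led and highest in the Ly6c2-led cells, while Batf3 was highest in the Spon1-led cells. By library, Irf8 in all monocyte/macrophage-like cells was 257, 85.5, 233 and 497 CPM.

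Batf2 was the gene whose level depended most on the library. In monocyte/macrophage-like cells it was 4.76, 0.474, 5.23 and 144 CPM in libraries 1 to 4. In endothelial-like cells it was 10.1, 1.15, 6.59 and 299 CPM. In both classes library 4 was far above the other libraries and library 2 was lowest, and within every library endothelial-like cells had the higher value. The 3 large monocyte/macrophage-like clusters of library 4 had 122 CPM (Spon1-led), 184 CPM (Nos2-led) and 170 CPM (Ly6c2-led), against 5.01 CPM in the Fcrls-led cluster of libraries 1 and 3, and the Nos2-led over Fcrls-led log2 ratio was 5.20 (4.90 to 5.52).

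Pooled over libraries, Batf2 was higher in monocyte/macrophage-like cells, at 104 CPM against 30.9 CPM and a log2 ratio of 1.75 (1.70 to 1.81). Within libraries 1 to 4 the ratios were -1.09, -1.28, -0.33 (-0.72 to 0.04) and -1.05, so the direction turned in each, with an interval that held 0 in library 3. Without library 4 the pooled ratio was -0.80. Library 4 gave 5817 of 8264 monocyte/macrophage-like but only 641 of 10949 endothelial-like cells. In the pooled comparison all 5 genes measured at 10 CPM were at least 2-fold higher in monocyte/macrophage-like cells, beside 15.9% of genes, and 0 were lower, beside 29.5%. Within library 4, 2 of 5 were higher (Batf and Irf5), beside 16.2% of genes, and Batf2 was lower, beside 24.8%. Batf, at 2.84, 3.29, 2.41 and 1.95, and Irf5, at 6.51, 6.37, 6.45 and 4.05, kept their direction within libraries 1 to 4. Batf3 gave 4.18, -1.44, 2.66 and 0.05, and Irf8 gave 0.95, 0.14, 1.74 and 0.24.

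**Figure D4:**
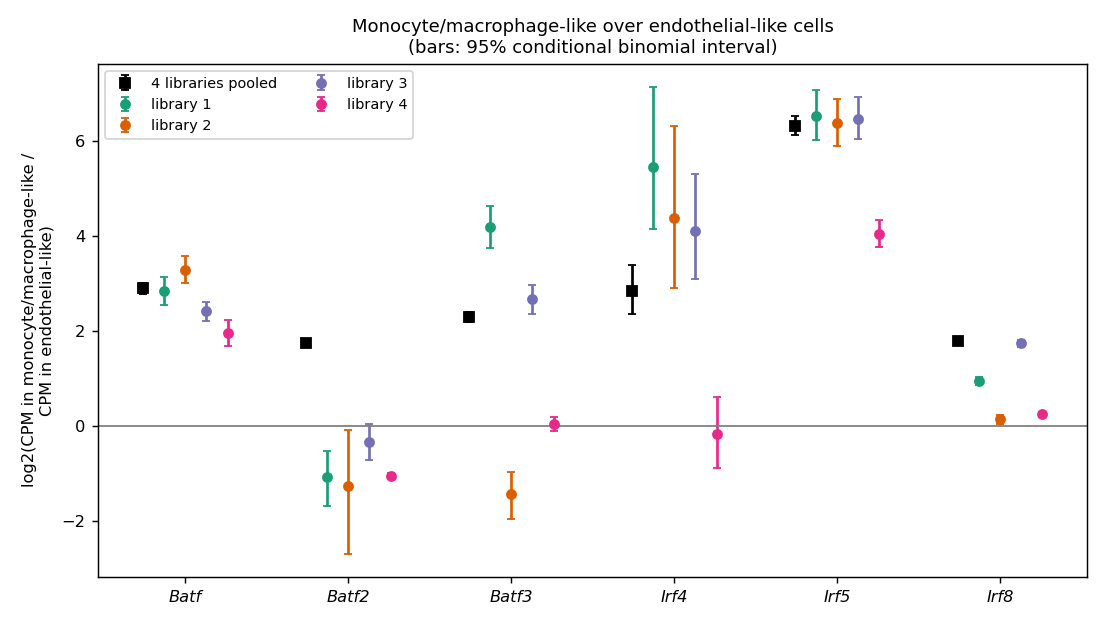
Log2 ratio of monocyte/macrophage-like over endothelial-like level for each gene, pooled over libraries (black squares) and within each library (points), with exact conditional binomial 95% intervals and a line at 0. Batf2 is at 1.75 pooled but between -1.28 and -0.33 within libraries, while Batf and Irf5 lie above 0 in all 4.

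Shares for Batf2 were 55.1% of monocyte/macrophage-like and 8.58% of endothelial-like cells, and 17.6% and 3.997% at 2000 UMIs, at median depths of 14433 and 6051 UMIs. Granulocyte-like cells, 2744 of 3103 of them from library 2, gave 2 UMIs of Batf2. Cardiomyocyte-like cells, mostly of library 1, gave 0 UMIs in 381 cells, and a count of 0 allows a share of up to 0.787% at their depth (3 counts). Erythroid-like cells, nearly all of library 4, had 6 UMIs, 31.1 CPM (11.4 to 67.7), and 2.78% of them held a UMI at 2000 UMIs (0.0703 to 14.5; 36 cells). T-like, NK-like, B-like and dendritic-like cells had thinned shares of 2.46%, 1.32%, 2.28% and 2.38%, which are not above that level and are not read as expression. Unthinned, these 4 shares were 12.3%, 8.21%, 5.19% and 10.7%.

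In endothelial-like cells, library 4 stood above the other libraries for each of the 6 genes. Irf8 was 133, 77.8, 69.7 and 419 CPM in libraries 1 to 4, Batf3 was 2.29, 7.56, 3.57 and 49.8 CPM, and Batf was 6.22, 4.15, 8.19 and 14.4 CPM. The log2 ratio of library 4 over the others was 5.75 for Batf2 (5.61 to 5.89), 3.42 for Batf3, 3.30 for Irf5, 2.24 for Irf8 and 1.20 for Batf. All 5 genes measured at 10 CPM were thus at least 2-fold higher there, beside 6.97% of genes, and 0 were lower, beside 10.5%. This compares 1 library with 3 others and not a condition.

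Nearly all library 4 endothelial-like cells (637 of 641) fell into 1 cluster led by Gbp2b, Ubd, Serpina3g and Cxcl9. All 8 endothelial markers and 0 of 12 monocyte/macrophage markers passed the marker rule in it, and Cdh5, which encodes VE-cadherin, was at 787 CPM. RNA of the monocyte/macrophage markers C1qa, C1qb and C1qc was 0.0216% of its UMIs, against 0.00189% to 0.00969% in the other endothelial-like clusters. In monocyte/macrophage-like clusters of library 4 it was 0.912% (Spon1-led), 0.248% (Nos2-led) and 0.106% (Ly6c2-led). The marker C1qa alone was at 78.7 CPM in the Ubd-bearing cluster and at 6.18 to 36.5 CPM in the other endothelial-like clusters. The part of monocyte/macrophage RNA in the Irf5 level (12.7 CPM) and the Batf2 level (299 CPM) of the Ubd-bearing cluster was not tested.

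Away from library 4, Irf8 also differed among endothelial-like clusters. The cluster led by Isg15 and Ifit1, genes induced by type I interferon, had 155 CPM of Irf8 (2720 cells, 2517 of them in library 1). Dbp and Egr1 were also among its leading genes. The cluster led by Aplnr (2265 cells of libraries 1 and 3) had 27.2 CPM, a log2 ratio of 2.51 (2.34 to 2.69). Batf2 in the Isg15-led cluster was 4.81 below the Ubd-bearing cluster of library 4 on the log2 scale, and Irf8 was 1.43 below it.

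Ubd encodes FAT10, a ubiquitin-like protein induced by interferon gamma and tumour necrosis factor, and a Ubd UMI was used to divide the endothelial-like cells. It was present in 495 of 10949 cells, with 17, 4, 7 and 467 in libraries 1 to 4, and these cells had a median of 10976 UMIs against 5904.5 in cells without it. Pooled, Batf2 was 293 CPM with and 9.63 CPM without a Ubd UMI (log2 ratio 4.93, 4.81 to 5.04), Batf3 52.6 and 4.98 CPM (3.40, 3.20 to 3.60) and Irf8 406 and 93.9 CPM (2.11). All 5 measured genes were at least 2-fold higher, beside 6.49% of genes, and 0 were lower, beside 10.1%. Without library 4, which leaves 28 cells with Ubd, the ratio was 3.29 for Batf2 and 0.83 for Batf3 (-1.45 to 2.39).

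Within library 4 the difference was small for Batf2 and Irf8. There, the 467 cells with and the 174 cells without a Ubd UMI had 305.5 CPM (293 to 319) and 269.7 CPM (244 to 298) of Batf2, a log2 ratio of 0.18 (0.02 to 0.34). Irf8 was 417 and 431 CPM (-0.05, -0.17 to 0.08), and Batf 13.5 and 18.7 CPM (-0.47, -1.11 to 0.20). Batf3 kept a larger difference, at 54.9 and 25.7 CPM (1.10, 0.61 to 1.63), and was the only 1 of 5 measured genes past 2-fold, beside 0.738% of genes. None was 2-fold lower, beside 3.03% of genes. Depth differed here too, with medians of 10992 and 5385 UMIs, and its part in this split was not tested. At 2000 UMIs per cell, a Batf3 UMI was present in 10.0% (7.43 to 13.1) with and 6.29% (3.06 to 11.3) without a Ubd UMI. These intervals overlapped.

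In library 1, the 17 cells with a Ubd UMI had 93.4 CPM of Batf2 (56.3 to 146, from 19 UMIs) against 9.34 CPM in the others, and 349 CPM of Irf8 (273 to 440) against 131 CPM. Both values with Ubd were above those without it in that library. The 4 and 7 such cells of libraries 2 and 3 had 0 UMIs of Batf2, and 19.6 and 27.8 CPM of Irf8 against 77.9 and 69.8 CPM in the others. At 2000 UMIs per cell, a Batf2 UMI was present in 42.3% of pooled cells with and 2.09% without Ubd, and an Irf8 UMI in 50.7% and 14.9%. Ubd itself was called at full depth. Without thinning these pooled shares were 82.0% and 5.10% for Batf2 and 88.7% and 36.3% for Irf8. Within library 4 the thinned shares were 44.0% with and 50.3% without Ubd for Batf2, and 52.1% and 45.3% for Irf8. The intervals of both pairs overlapped, so the pooled gap was not seen within library 4.

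**Figure D5:**
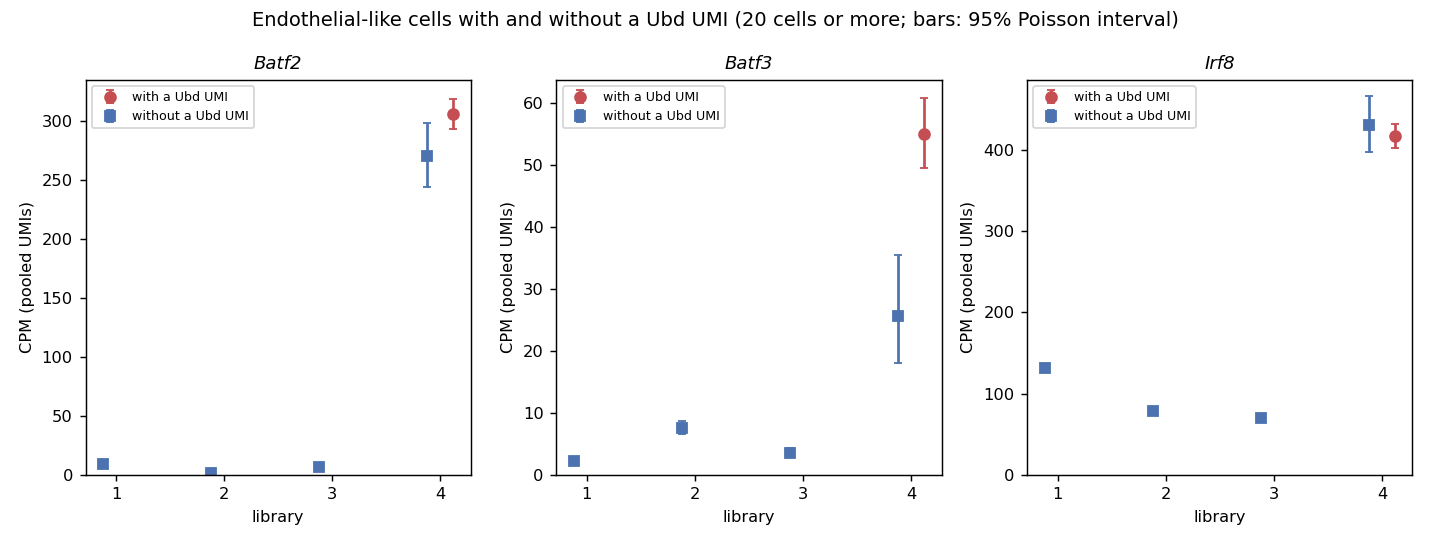
Level (CPM) of Batf2, Batf3 and Irf8 in endothelial-like cells with and without a Ubd UMI, by library where a group has at least 20 cells, with exact Poisson 95% intervals. Only library 4 has enough cells with Ubd, and there Batf2 is 305.5 against 269.7 CPM, Irf8 417 against 431 CPM and Batf3 54.9 against 25.7 CPM.

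The genes whose levels were most like each member's were listed by Pearson's r of log2(CPM + 10) across the 54 clusters of at least 30 cells, as a description, since clusters share libraries and depth. For Batf the top genes were Rac2 (0.90), Arhgap9, Sla, Arhgdib and Was (0.88), genes of the leukocyte cytoskeleton and signalling. For Batf2 they were Il18bp (0.95), Gbp2, Gm4951, Gbp5 and Irf7 (0.90), most of them known as interferon-induced genes. For Batf3 they were Shtn1 (0.84), Phf11a, Atox1, Tbc1d9 and Htr7 (0.80), and for Irf4 Gpr183 (0.81), Stat4, Ccr7, Mif4gd and Epcam (0.77). For Irf5 they included Spi1 (0.94), Evi2a, Ctss and Plbd1 (0.92), which are mostly myeloid genes. For Irf8 they were Pafah1b3 (0.80), Slamf7, Psme1, Ap1g2 and Psmb8 (0.77), and Psme1 and Psmb8 encode parts of the immunoproteasome.

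Among pairs of the 6 genes across the same 54 clusters, r was highest for Batf3 and Irf5 (0.73) and for Batf3 and Irf8 (0.65). It was 0.59 for Batf2 and Batf3, 0.53 for Batf and Irf4, and 0.32 for Batf and Irf8. For Batf3 and Irf4 (0.03) and for Batf2 and Irf4 (-0.04) it was close to 0. Within single clusters, the share of cells at 2000 UMIs with both genes of a pair was set beside the product of the single shares. In the Ubd-bearing endothelial-like cluster 26.8% held both Batf2 and Irf8, beside a product of 22.9%. In the regulatory T-like cluster 3.90% held both Batf and Irf4, beside 2.40%, and in the mature dendritic-like cluster 20.8% held both Batf3 and Irf8, beside 24.8%.

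Related factors were followed as 4 lists: other interferon regulatory factors, AP-1 partners, Ets and other lineage factors, and interferon gamma response genes. In T-like over monocyte/macrophage-like cells, 0 of 5 measured interferon regulatory factors were at least 2-fold higher and 3 were lower (Irf1, Irf2 and Irf7), with a median log2 ratio of -1.26 beside 0.22 over all genes. Of 8 AP-1 genes, Bach2, a repressor kept in quiescent lymphocytes, was higher and 4 were lower (Jun, Fos, Fosb and Bach1), with a median of -1.05. Of 14 lineage factors 3 were higher (Ikzf1, Ikzf3 and Ets1) and 9 lower, with Spi1, the myeloid factor PU.1, at 24.7 against 588 CPM. The interferon gamma response list had 0 higher and 5 lower of 8, with a median of -1.56. In library 3, with 22 T-like cells, this list had 3 higher and 2 lower of 7 (median 0.73 beside 0.32 over all genes). In library 4 it had 0 higher and 7 lower of 8 (median -1.99 beside 0.23).

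In dendritic-like over monocyte/macrophage-like cells the lineage list had 5 of 15 higher (Spib, Id2, Tcf4, Zbtb46 and Relb) and 4 lower (Zeb2, Prdm1, Cebpa and Cebpb), with a median of 0.21 beside -0.02 over all genes. Spib, an Ets factor that works in plasmacytoid dendritic and B cells, had 60.7 against 0.326 CPM. Zbtb46 is also a naming marker of the class. The other interferon regulatory factors had 0 higher and 2 lower (Irf1 and Irf7) of 5, with a median of -0.82. The AP-1 list had 1 higher (Bach2) and 0 lower of 8 (median -0.25), and the interferon gamma response list 0 higher and 4 lower of 8 (median -1.03). Within libraries 1 to 4 the median of the response list was 0.46, 0.99, -0.14 and -0.30, so the pooled value was below each of them. The other interferon regulatory factors had medians of -0.18, 0.62, -0.19 and -0.44, with 2 higher (Irf7 and Irf9) and 0 lower in library 2. The lineage list had medians of -0.25, -0.65, -0.24 and -0.08, each below 0 unlike the pooled value. The AP-1 list had medians of -0.59, -0.51, -0.41 and -1.30, beside -0.04, 0.01, -0.11 and 0.08 over all genes. It had 2, 3, 1 and 4 genes lower in libraries 1 to 4, with Jun among them in each. Bach2 was higher in libraries 1 to 3, and 0 AP-1 genes were higher in library 4.

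In monocyte/macrophage-like over endothelial-like cells the AP-1 list had 0 higher and 5 lower of 9, with a median of -1.83 beside -0.36 over all genes. Within libraries 1 to 4 the AP-1 medians were -1.003, -1.41, -0.58 and -0.66, beside -0.35, -0.38, -0.39 and -0.25 over all genes. The pooled AP-1 median was thus below each of them. AP-1 genes at least 2-fold lower numbered 5, 5, 4 and 4 in these libraries, and 0 were higher in any. The lineage list had 9 higher and 4 lower of 14, with a pooled median of 2.08. Of the other interferon regulatory factors, Irf7 alone was higher and 0 were lower of 5 (median -0.66), and the interferon gamma response list had 5 higher and 1 lower (Ubd) of 8 (median 1.33). As for Batf2, this turned within libraries: the response list had 1 higher and 4 lower in library 1, 0 and 4 in library 2, 1 and 4 in library 3, and 2 and 2 in library 4, with medians of -2.01, -2.80, -1.57 and -0.11. Of the other interferon regulatory factors 0 were higher in any library, and 3, 2, 2 and 0 were lower. In B-like over T-like cells, the lists had 2 higher (Irf1 and Irf2) and 0 lower of 5 interferon regulatory factors, 3 and 1 of 8 AP-1 genes, 6 and 3 of 14 lineage factors and 5 and 0 of 8 response genes. Their medians were 0.94, 0.85, 0.85 and 1.25, beside -0.08 over all genes. In library 3 the medians were -0.09, 0.45, -0.59 and -1.86, beside -0.18 over all genes. In library 4 they were 1.63, 0.83, 0.96 and 2.01, beside -0.13. The response list had 1 higher and 4 lower of 6 in library 3, and 7 higher and 0 lower of 8 in library 4. In NK-like over T-like cells Jun and Fos were higher of 8 AP-1 genes and Id2 and Tcf4 of 13 lineage factors, with 0 called in the other lists and 0 lower in any. The medians were 0.25 for interferon regulatory factors, 0.64 for AP-1, 0.14 for lineage factors and -0.15 for response genes, beside -0.05. In library 3, with 22 T-like and 36 NK-like cells, 3 lineage factors and 2 response genes were lower. Irf3, Bach1, Bach2, Id2 and Nfil3 were higher there. In library 4 only Id2 and Tcf4 were higher, so Jun and Fos passed 2-fold in neither library.

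In endothelial-like cells with over without a Ubd UMI, the interferon gamma response list had 6 higher of 8, among them Ubd itself, and 0 lower, with a median of 2.99 beside -0.16 over all genes. Irf7 was the 1 other interferon regulatory factor past 2-fold of 5, at 737 against 117 CPM (median 0.22). Spi1 and Zeb2 were higher of 12 lineage factors (median -0.07), with Spi1 at 36.2 against 3.84 CPM. Spi1 was 599.8, 669.5 and 786.2 CPM in the Spon1-led, Nos2-led and Ly6c2-led monocyte/macrophage-like clusters of library 4. The part of monocyte/macrophage RNA in the Spi1 and Zeb2 levels was not tested. Of 9 AP-1 genes, 3 were lower (Junb, Jund and Fosb, with a list median of -0.75). Within library 4, only Cxcl9 and Ubd of the response list were higher (median 0.11 beside -0.10). Ikzf1 of the lineage list was lower (median -0.08), and Spi1 and Zeb2 did not pass 2-fold. There, 0 of the interferon regulatory factors (median 0.02) or AP-1 genes (median 0.03) passed it.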

How the data were processed

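Droplet 3' single-cell RNA libraries of 4 mouse heart grafts were analysed. The authors deposited UMI counts, made per the labels with CASAVA 1.8 and Cell Ranger (3.0.0 per the file headers) on mm10, as 1 matrix whose barcode suffixes are not matched to grafts. No column of values was left out.

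From these counts, cells with more than 200 genes and less than 20% mitochondrial UMIs were kept, 13 mitochondrial genes were removed, and the 5% of cells per library with the highest simulated-doublet score were left out. Per cell, UMIs were put on a total of 10000 and log-transformed, and 10 components of 2000 variable genes, members excluded, fed a 30-neighbour graph for Leiden clustering (resolution 0.8, and 0.5 within lineages). Dendritic-named clusters were divided once more after seeing the data. A cluster took a class name, out of 16 class lists, from at least 3 markers. Each had to be in 10% or more of its cells and 2-fold or more above the other cells after adding 10 CPM. The name was taken away if another class had more markers among the 10 leading genes (at least 2 when compared within its lineage). It was also taken away if the cells were shallow for their library and no marker of the class led.

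Levels are CPM with exact Poisson intervals, shares have Clopper-Pearson intervals, and log2 ratios have exact conditional binomial intervals, all at 95% and for counting error only. UMIs collapse PCR copies. Shares were also read after thinning to 2000 UMIs, leaving out shallower cells. With 1 pooled sample there was no test, and a 2-fold difference among genes at 10 CPM or more in either class is called. Total depth ran from 96020294 to 166079145 UMIs per library. The members, gene lists and comparisons were chosen with earlier results of these data known. The genes named are the members, the 5 genes most like each across clusters of at least 30 cells (among genes at 20 CPM or more in 1 of them), and 4 lists: other interferon regulatory factors, AP-1 genes, lineage factors and interferon gamma response genes. 1 gene that this rule names is not reported here. Alternatives were no doublet removal, another resolution, a minimum of 1000 UMIs, classes cell by cell, within-library medians and leaving out each library. Simulated data were used to test the ratio step. Tools were matplotlib 3.10.9, leidenalg 0.10.2, igraph 0.11.9, scikit-learn 1.9.0, scipy 1.17.1, numpy 2.4.6 and Python 3.11.15.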

Additional observations from a re-analysis of the deposited data

How the results depend on the processing

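Across 87 alternative settings of 9 log2 ratios, 42 stayed within counting error of the reported value, 43 moved beyond it and 2 turned direction. Both turns concern Batf2 in monocyte/macrophage-like over endothelial-like cells, which was -1.07 as the median within libraries and -0.80 without library 4. Medians within libraries used only libraries with at least 20 cells in both groups. For the Ubd split this was library 4 alone, and for comparisons with T-like cells it was libraries 3 and 4. The medians within libraries were 0.79 for Batf in T-like over monocyte/macrophage-like cells, 1.92 for Batf3, 3.56 for Irf4 and 1.46 for Irf8 in dendritic-like over monocyte/macrophage-like cells, 2.80 for Irf5 in monocyte/macrophage-like over T-like cells, 1.95 for Irf8 in B-like over T-like cells, and 0.18 for Batf2 and 1.10 for Batf3 in endothelial-like cells with over without Ubd. At the higher clustering resolution Batf2 in monocyte/macrophage-like over endothelial-like cells was 1.88, Batf3 and Irf8 in dendritic-like over monocyte/macrophage-like cells were 1.35 and 1.39, Irf5 was 3.96 and Batf2 with Ubd was 5.06. With each cell assigned by its own markers these ratios were 2.22, 1.76 and 1.37, with Irf4 at 3.80 and Batf2 with Ubd at 5.21. With no doublets left out Irf5 was 3.02 and Irf8 in B-like over T-like cells 0.96. When the mixed cluster of library 4 was counted as dendritic-like, a setting chosen after seeing the data, Batf3, Irf4 and Irf8 in dendritic-like cells were 1.10, 3.85 and 1.20. Leaving out each library in turn gave ranges, in the same order, of 1.23 to 1.40 for Batf, -0.80 to 1.55 for Batf2, 1.48 to 2.27 for Batf3, 3.86 to 4.42 for Irf4, 1.76 to 3.86 for Irf5, 1.53 to 1.77 and 1.15 to 2.64 for Irf8, and 3.29 to 4.94 for Batf2 and 0.83 to 3.88 for Batf3 with Ubd. Leaving out library 4 gave 1.76 for Irf5. The cause of these shifts was not tested beyond the library values in the report. Of 42 shares at 2000 UMIs, 35 moved beyond their interval without thinning and 27 at 1000 UMIs.

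No paired analysis was possible because no library is matched to a graft and no result comes from a test. The 2 to 68 T-like or dendritic-like cells in each of libraries 1 to 3 limit the precision of their values, and classes with a few UMIs of a gene, such as Irf4 in endothelial-like cells, cannot be ordered.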

Other observations

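Stromal cells also carried Batf2 and Irf8 in library 4. Fibroblast-like cells had 2.88, 0.0964, 1.12 and 90.1 CPM of Batf2 and 84.0, 9.54, 39.2 and 249 CPM of Irf8 in libraries 1 to 4, so both were highest in library 4 and lowest in library 2. Pericyte-like cells had 9.94, 2.61, 5.56 and 181 CPM of Batf2 and 213, 58.5, 117 and 477 CPM of Irf8, in the same order of highest and lowest library, with 42 cells in library 4. The fibroblast-like cluster of library 4 (563 cells) had 89.0 CPM of Batf2 and 246.5 CPM of Irf8, against 1.23 and 39.6 CPM in the largest other fibroblast-like cluster, log2 ratios of 6.18 and 2.64. It also had 26.1 against 4.44 CPM of Irf5 and 12.4 against 1.08 CPM of Batf3. RNA of the monocyte/macrophage markers C1qa, C1qb and C1qc was 0.0389% of its UMIs against 0.00493% in the other cluster. The part of monocyte/macrophage RNA in these levels was not tested.

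A cluster that stayed unnamed was led by Asprv1, Hdc, Slfn4 and Cxcr2, genes of neutrophils, with 762 of its 765 cells in library 4. It had 142 CPM of Batf2 (127 to 158), 139 CPM of Irf5 and 81.6 CPM of Batf. The granulocyte-like cells, most of them of library 2, had 2 UMIs of Batf2, 42.3 CPM of Irf5 and 48.5 CPM of Batf. Irf8 stood at 81.2 CPM in the unnamed cluster and at 8.003 CPM in the granulocyte-like cells. In that unnamed cluster 9 of 12 monocyte/macrophage markers passed the marker rule.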
